A study of Homo sapiens with 24 samples.

Results

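The EGF receptor family and its ligands were followed across 24 RNA-seq libraries, through the genes EGFR, ERBB2 and ERBB3 for receptors and NRG1, AREG, EREG, HBEGF, TGFA, BTC and EPGN for ligands. These 10 genes were taken by symbol from the 60675 genes of the count tables, and each symbol matched 1 Ensembl identifier. Libraries came from ACHN, a renal cancer cell line labelled ccRCC, and HK2, a line of human kidney proximal tubular epithelium. In each line 4 groups of 3 replicates were sequenced, namely shNC cells with a control hairpin, shKDM5C cells, shYY1 cells and Dsh cells, in which KDM5C and YY1 were knocked down together. KDM5C is a demethylase of histone H3 lysine 4, YY1 is a zinc finger transcription factor, and the comparison asks how these genes respond when either or both are depleted. Hairpins were delivered by lentivirus with puromycin selection, so all groups share that treatment. Dsh cells were made from YY1-depleted cells by infection with a KDM5C hairpin plasmid that carries GFP and by selection for puromycin resistance and green fluorescence. A control hairpin plasmid with EGFP is among the reagents listed by the paper, but whether the other groups received it was not stated. The part of a second infection in the Dsh values was not tested. Which hairpin was used for sequencing was not stated, nor whether replicates were separate cultures, so p-values measure only the spread between these samples, which may be technical.

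The receptors of this family are tyrosine kinases at the cell surface that dimerize after a ligand binds and then signal through the RAS-ERK and PI3K-AKT pathways. AREG, TGFA and EPGN bind EGFR, while EREG, HBEGF and BTC bind EGFR and ERBB4, and NRG1 binds ERBB3 and ERBB4. ERBB2 has no known ligand and acts as a dimer partner, and the kinase of ERBB3 is weak. The ligands are made as membrane proteins and are shed by metalloproteases, and in the kidney EGFR signaling is known for its part in tubule growth and repair.

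Library totals ranged from 15926561 to 24272298 counts. Levels are given as CPM, counts normalized to library size with edgeR's TMM factors over all 24 libraries, and as RPKM, the same per kilobase of gene, where genes are compared with each other. The targeted genes followed the labels. KDM5C had 70.8 ± 0.56 CPM (SD, n = 3) in ACHN shNC, 43.1 ± 1.36 in shKDM5C and 40.6 ± 0.644 in Dsh cells, and in HK2 cells 190.7 ± 3.16, 56.2 ± 19.2 and 68.2 ± 2.92 CPM. The HK2 shKDM5C libraries had 34.1, 67.55 and 67.1 CPM, all below shNC. YY1 had 139 ± 3.90 CPM in ACHN shNC, 76.8 ± 3.57 in shYY1 and 97.0 ± 7.07 in Dsh cells, and 207.5 ± 6.38, 63.9 ± 2.81 and 74.2 ± 1.78 CPM in HK2 cells. KDM5C was higher than in shNC in shYY1 cells of both lines, at 90.7 ± 2.67 CPM in ACHN (log2 fold change 0.34, SE 0.0399, adjusted p = 1.14e-08) and 243.5 ± 14.1 CPM in HK2 (0.35, SE 0.0506, adjusted p = 1.54e-05). Library 1 of HK2 shKDM5C stood apart. Its genes of the mitochondrial genome took 11.8% of counts, against 4.75% to 5.52% in the other HK2 libraries, and its log2 CPM correlated with replicates 2 and 3 at 0.954 and 0.955, where those 2 correlated at 0.995. Tests on HK2 shKDM5C are therefore given with and without this library, whose part in the results was not tested otherwise. Of 13 markers of kidney epithelium, 7 or 8 had at least 1 RPKM in every group, among them PAX8 at 73.6 RPKM in ACHN shNC and 34.2 RPKM in HK2 shNC cells. Of the proximal tubule genes among these markers, LRP2, CUBN, AQP1, ANPEP and SLC34A1 were at 0.114 RPKM or less in both shNC groups. GGT1 went the other way, at 15.9 RPKM in ACHN shNC and 45.2 RPKM in HK2 shNC cells. The summed RPKM of 8 blood and endothelial markers was between 0.0809 and 0.433 in ACHN and between 1.62 and 4.10 in HK2 libraries, where CD14 was the marker above 1 RPKM. In bulk samples, fewer cells that express a gene and less RNA of it per cell cannot be told apart.

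The members lie on 7 chromosomes of GRCh38 (Ensembl release 84). EGFR (ENSG00000146648) lies on chromosome 7 from 55019021 to 55256620, ERBB2 (ENSG00000141736) on chromosome 17 from 39687914 to 39730426, and ERBB3 (ENSG00000065361) on chromosome 12 from 56079857 to 56103505. HBEGF (ENSG00000113070) lies on chromosome 5 from 140332843 to 140346631, and TGFA (ENSG00000163235) on chromosome 2 from 70447280 to 70554193. Another 4 ligand genes stand together on chromosome 4, where EPGN (ENSG00000182585, from 74308473 to 74315307), EREG (ENSG00000124882, from 74365143 to 74388751), AREG (ENSG00000109321, from 74445134 to 74455009) and BTC (ENSG00000174808, from 74744759 to 74794686) span 486.2 kb. The rule that chose the members did not use position.

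The bases just before AREG, EREG and EGFR are shown because AREG and EREG were the members that rose most in ACHN Dsh cells and EGFR was the most abundant receptor and fell there. They come from RefSeq promoter windows (GRCh38.p14, plus strand, 5′ to 3′) and end before the gene starts, at chr4:74444886-74445133, chr4:74364895-74365142 and chr7:55018767-55019016. Capitals mark TATAAA on the strand shown, and TGACGTCA and GGGCGG on either strand.
AREG: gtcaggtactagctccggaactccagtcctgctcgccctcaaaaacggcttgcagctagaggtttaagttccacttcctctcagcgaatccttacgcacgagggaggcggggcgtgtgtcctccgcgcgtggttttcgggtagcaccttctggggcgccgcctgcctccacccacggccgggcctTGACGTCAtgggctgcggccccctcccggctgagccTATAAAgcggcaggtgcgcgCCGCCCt
EREG: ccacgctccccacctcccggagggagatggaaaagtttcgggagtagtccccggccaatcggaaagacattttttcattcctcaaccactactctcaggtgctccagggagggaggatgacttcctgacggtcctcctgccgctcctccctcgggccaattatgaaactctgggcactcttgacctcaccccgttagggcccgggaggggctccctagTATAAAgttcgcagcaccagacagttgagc
EGFR: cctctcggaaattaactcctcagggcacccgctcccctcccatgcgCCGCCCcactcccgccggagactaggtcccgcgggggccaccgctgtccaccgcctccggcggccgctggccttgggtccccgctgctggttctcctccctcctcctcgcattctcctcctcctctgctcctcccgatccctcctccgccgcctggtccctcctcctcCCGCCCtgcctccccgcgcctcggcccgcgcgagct
In the AREG stretch TGACGTCA, the cyclic AMP response element, starts at position -65 from the RefSeq start, TATAAA at -29 and CCGCCC, the GC box on the other strand, at -9. The EREG stretch holds TATAAA at -32 and none of the other 2 motifs, and the EGFR stretch holds 2 GC boxes and no TATAAA. Over 35116 RefSeq windows of 300 bases, TATAAA was present in 7.33%, TGACGTCA in 1.85% and GGGCGG in 45%. Windows were found for 8 of the 10 members (10 windows), of which 4, 1 and 5 held these motifs. The YY1 core GCCATNTT, searched on both strands, was in 6.58% of all windows and in 0 of the 10 windows of members. The AREG window was 66.3% GC and the EREG window 57.7%, against a median of 58.7% over all windows, and the EGFR window shown was at 75.3%. EGFR has another RefSeq window, at a later start, that was 42% GC, held TATAAA and no GC box, and is not shown. TGACGTCA reads the same on both strands, no motifs overlap in the stretches shown while a pair of GC boxes of the HBEGF window share a base, and TATAAA, TGACGTCA and GGGCGG were chosen after the sequences were seen. These matches are descriptions of letters and not measured binding sites.

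In control cells both lines had EGFR as the leading receptor, but their ligands differed. Per length, ACHN shNC cells had 109 ± 1.76 RPKM of EGFR, 9.99 ± 0.0415 of ERBB2 and 3.05 ± 0.0561 of ERBB3 (SD, n = 3), so that EGFR made up 89.3% of the receptor RPKM of the members. HK2 shNC cells had 41.4 ± 1.86 RPKM of EGFR, 9.64 ± 0.576 of ERBB2 and 0.819 ± 0.0494 of ERBB3, with EGFR at 79.8%. The ligand with the highest RPKM in ACHN shNC cells was TGFA, at 19.9 ± 0.270 RPKM or 46.3% of the ligand sum, followed by NRG1 at 15.4 ± 0.350 RPKM. In HK2 shNC cells it was AREG, at 26.3 ± 2.08 RPKM or 34.4%, followed by EREG at 21.9 ± 1.76 RPKM or 28.6%. AREG and EREG thus held most of the ligand mRNA in HK2 and the lowest shares in ACHN cells apart from EPGN, at 3.6% and 0.383%.

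Tested directly, ACHN shNC cells were lower than HK2 shNC cells in 3 members and higher in 5, where 38% of the 16988 genes tested were lower and 38.6% higher (edgeR, adjusted p under 0.05). EREG was 133-fold lower in ACHN cells (log2 fold change -7.05, SE 0.114, adjusted p = 1.13e-27), AREG was 17.1-fold lower (-4.09, SE 0.114, adjusted p = 2.83e-22) and HBEGF was 2.45-fold lower (-1.29, SE 0.0898, adjusted p = 3.03e-13). ERBB3 was 3.70-fold higher in ACHN cells (log2 fold change 1.89, SE 0.0997), TGFA 3.00-fold (1.59, SE 0.0572), EGFR 2.62-fold (1.39, SE 0.0319), BTC 1.63-fold (0.71, SE 0.171) and NRG1 1.41-fold (0.50, SE 0.0387), with adjusted p-values from 3.40e-24 for EGFR to 0.000549 for BTC. ERBB2 did not pass the test (log2 fold change 0.04, SE 0.0464, adjusted p = 0.40). Each side is 1 cell line, so these are differences between ACHN and HK2 and not between cancer and normal kidney at large.

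**Figure D1:**
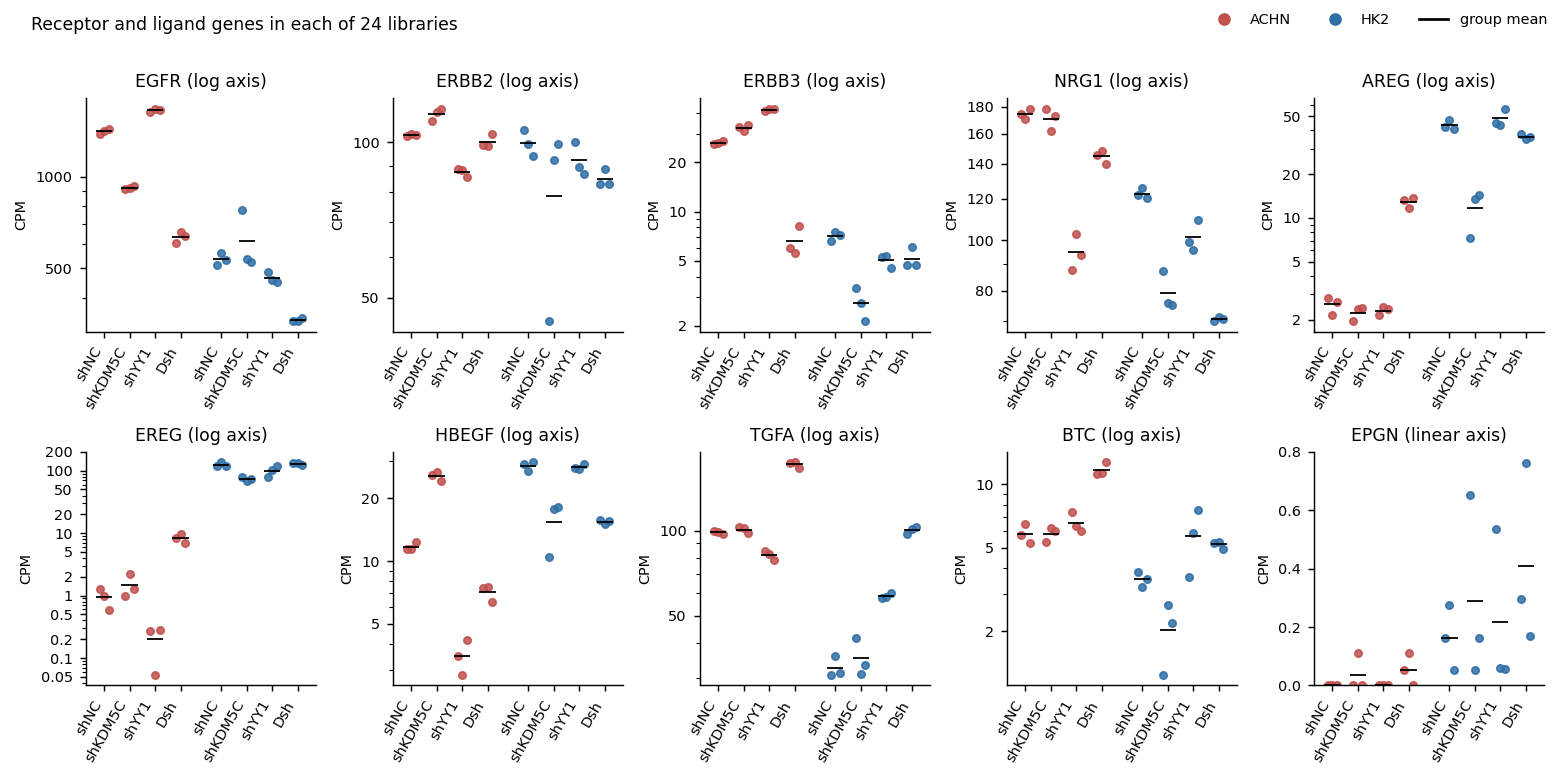
CPM of each member (vertical axis, logarithmic except for EPGN) in the 3 libraries of each group (points, replicates 1 to 3 from left to right) with the group mean (line), ACHN in red and HK2 in blue. In ACHN, AREG lies between 11.8 and 13.6 CPM in Dsh cells and at 2.83 CPM or less in the other groups, and in HK2 shKDM5C the replicate 1 point lies away from the other two for EGFR, ERBB2, AREG and HBEGF.

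EGFR, the receptor of most of these ligands, was lower in Dsh cells of both lines. ACHN shNC libraries held 1388, 1420 and 1432 CPM, shKDM5C libraries 911, 916 and 930.1, shYY1 libraries 1635, 1677 and 1654, and Dsh libraries 607, 659 and 637 CPM. No 2 of these groups overlap, and their order was shYY1, shNC, shKDM5C and Dsh from the top. The log2 fold change against shNC was -0.64 in shKDM5C (SE 0.0263, adjusted p = 1.61e-16), 0.21 in shYY1 (SE 0.0235, adjusted p = 4.26e-09) and -1.15 in Dsh cells (SE 0.0421, adjusted p = 4.32e-14), a 2.22-fold decrease in the last. In HK2 cells EGFR was at 514, 562 and 534 CPM in shNC, 486, 459 and 450.5 in shYY1 and 336, 335 and 342 in Dsh libraries. Dsh libraries lay below all others of the line, with a log2 fold change of -0.67 (SE 0.0416, adjusted p = 1.41e-14), and shYY1 libraries lay below shNC by less, at -0.21 (SE 0.0468, adjusted p = 0.00147). HK2 shKDM5C libraries had 779, 537 and 525 CPM. The first is the library that stood apart, and EGFR passed the test neither with it (log2 fold change 0.24, adjusted p = 0.552) nor without it (-0.03, SE 0.0395, adjusted p = 0.701), the sign changing between them.

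ERBB3, the partner receptor for neuregulins, had its largest change in ACHN Dsh cells. Its ACHN libraries held 26.0, 26.3 and 27.0 CPM in shNC, 33.0, 31.0 and 34.0 in shKDM5C, 41.5, 42.8 and 42.3 in shYY1, and 6.02, 5.54 and 8.19 in Dsh cells. All 4 groups were separate. Each single knockdown was above shNC, by a log2 fold change of 0.29 for shKDM5C (SE 0.0638, adjusted p = 0.000356) and 0.65 for shYY1 (SE 0.0565, adjusted p = 8.46e-12), while Dsh cells were below it by 3.94-fold (-1.98, SE 0.117, adjusted p = 4.30e-11). In HK2 cells ERBB3 was lower to begin with, at 6.62, 7.45 and 7.21 CPM in shNC, 5.29, 5.36 and 4.51 in shYY1, 4.72, 6.05 and 4.71 in Dsh and 3.39, 2.76 and 2.13 in shKDM5C libraries. Every knockdown library lay below the shNC libraries, and shYY1 and Dsh overlapped each other. The log2 fold change was -0.49 in shYY1 (SE 0.166, adjusted p = 0.0277) and -0.46 in Dsh cells (SE 0.175, adjusted p = 0.0287). The shYY1 call was lost without shNC replicate 2 or 3 or shYY1 replicate 3, with log2 fold changes between -0.48 and -0.42 and adjusted p-values up to 0.105. The Dsh call was lost without shNC replicate 2 or 3 or Dsh replicate 1 or 3, with values between -0.45 and -0.40 and adjusted p-values up to 0.0914, and without a filter on low counts (-0.46, adjusted p = 0.0526). In shKDM5C the value was -1.32 (SE 0.244, adjusted p = 0.057) with all libraries and -1.54 (SE 0.212, adjusted p = 5.43e-06) without replicate 1.

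ERBB2, the receptor without a known ligand, moved little. In ACHN cells it ranged from 103 to 104 CPM in shNC, from 109.6 to 116 in shKDM5C, from 85.6 to 88.8 in shYY1 and from 98.2 to 104 in Dsh libraries. The shKDM5C and shYY1 libraries lay to either side of shNC, at log2 fold changes of 0.12 (SE 0.0387, adjusted p = 0.0098) and -0.26 (SE 0.0372, adjusted p = 5.25e-07), and Dsh libraries overlapped shNC (-0.03, SE 0.0468, adjusted p = 0.543). Without replicate 3 of shKDM5C the first of these calls was lost (0.10, adjusted p = 0.0513), as it was when libraries were scaled by total counts in place of TMM factors (0.08, adjusted p = 0.0984). In HK2 cells the mean was 99.5 ± 5.95 CPM in shNC and 84.8 ± 3.36 CPM in Dsh libraries (SD, n = 3). Dsh cells were thus lower by -0.23 on the log2 scale (SE 0.0568, adjusted p = 0.00102), and shYY1 cells, at -0.11, did not pass the test (adjusted p = 0.192). ERBB2 was at 45, 92.3 and 98.9 CPM in shKDM5C libraries, the lowest being replicate 1, and did not pass the test with or without it (adjusted p = 0.527 and 0.47).

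AREG and EREG, the EGFR ligands amphiregulin and epiregulin, rose in ACHN Dsh cells and in neither single knockdown of ACHN. AREG was at 2.83, 2.16 and 2.65 CPM in ACHN shNC, 1.95, 2.36 and 2.40 in shKDM5C, 2.13, 2.42 and 2.35 in shYY1 and 13.2, 11.8 and 13.6 in Dsh libraries. The first 3 groups overlapped and Dsh stood above them all, 5.08-fold over shNC (log2 fold change 2.35, SE 0.143, adjusted p = 6.46e-11). Neither single knockdown passed the test for AREG (shKDM5C -0.20, adjusted p = 0.432, and shYY1 -0.17, adjusted p = 0.547). EREG was close to the detection limit in ACHN shNC cells, with 11 to 24 counts or 1.26, 0.971 and 0.596 CPM per library. Dsh libraries had 162 to 173 counts or 8.34, 9.58 and 6.97 CPM, 8.73-fold more (log2 fold change 3.12, SE 0.225, adjusted p = 6.76e-10). shYY1 libraries of ACHN had 1 to 5 counts or 0.267, 0.0539 and 0.280 CPM of EREG, below all shNC libraries (-2.23, SE 0.489, adjusted p = 0.000269), and shKDM5C libraries, at 0.975, 2.19 and 1.25 CPM, overlapped shNC (0.62, adjusted p = 0.126). Even so, ACHN Dsh cells remained below HK2 shNC cells, which held 43.3 ± 3.42 CPM of AREG and 125 ± 10.1 CPM of EREG (SD, n = 3).

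In HK2 cells AREG was lowest after KDM5C knockdown and nearer to the control level in Dsh cells. AREG was at 42.0, 47.2 and 40.8 CPM in shNC, 7.24, 13.5 and 14.5 in shKDM5C, 44.8, 43.7 and 56.6 in shYY1 and 38.0, 35.0 and 35.8 in Dsh libraries. The shKDM5C libraries lay far below every other HK2 library, replicate 1 being the lowest, and shYY1 overlapped shNC. The log2 fold change of AREG in shKDM5C was -1.86 (SE 0.234, adjusted p = 0.0172) and without replicate 1 it was -1.64 (SE 0.0989, adjusted p = 6.37e-12). The call was lost without any 1 of the other 5 libraries, with values between -2.02 and -1.80 and adjusted p-values between 0.0681 and 0.151. In Dsh cells AREG was below shNC by a log2 fold change of -0.26 (SE 0.0761, adjusted p = 0.0054), a call lost without shNC replicate 2 (-0.19, adjusted p = 0.0533).

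EREG, the next of the chromosome 4 genes, had its lowest HK2 levels in the same group. EREG was at 118, 137 and 121 CPM in HK2 shNC, 78.5, 68.6 and 72.3 in shKDM5C, 78.2, 101 and 119 in shYY1 and 130.5, 131 and 121 in Dsh libraries. The shKDM5C libraries were below shNC, by -0.74 with all libraries (SE 0.135, adjusted p = 0.0565) and by -0.84 without replicate 1 (SE 0.0635, adjusted p = 3.15e-10). Dsh libraries overlapped shNC for EREG (0.02, SE 0.0553, adjusted p = 0.746). In shYY1 cells EREG was lower by -0.34 (SE 0.0942, adjusted p = 0.00903), a call lost without shNC replicate 2 (-0.27, adjusted p = 0.0852) or shYY1 replicate 1 (-0.19, adjusted p = 0.0541) and with DESeq2 (adjusted p = 0.169).

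TGFA, transforming growth factor alpha, was higher in Dsh cells of both lines. ACHN libraries held 99.8, 99.1 and 97.2 CPM in shNC, 102, 102 and 97.7 in shKDM5C, 84.3, 82.8 and 78.8 in shYY1 and 173, 175 and 167 in Dsh cells. Dsh lay above and shYY1 below all shNC libraries, at log2 fold changes of 0.80 (SE 0.045, adjusted p = 1.89e-11) and -0.29 (SE 0.0389, adjusted p = 1.31e-07). HK2 libraries held 30.8, 35.9 and 31.3 CPM in shNC, 41.6, 30.9 and 33.3 in shKDM5C, 57.9, 58.2 and 60.2 in shYY1 and 97.1, 101 and 103 in Dsh cells. TGFA stood higher in shYY1 (0.84, SE 0.0736, adjusted p = 1.35e-08) and higher again in Dsh libraries, 3.07-fold over shNC (1.62, SE 0.0659, adjusted p = 5.42e-19). In shYY1 cells the direction thus differed between the lines, a difference of -1.12 by the test across lines (SE 0.0781, adjusted p = 2.42e-12). In shKDM5C TGFA passed the test in neither line (ACHN 0.01, adjusted p = 0.785, and HK2 0.15, adjusted p = 0.67, or -0.04, adjusted p = 0.834, without replicate 1).

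HBEGF, the heparin-binding EGF-like growth factor, went in opposite directions in the single knockdowns of ACHN. Its ACHN libraries held 11.4, 11.4 and 12.3 CPM in shNC, 25.7, 26.6 and 24.3 in shKDM5C, 3.52, 2.86 and 4.20 in shYY1 and 7.46, 7.53 and 6.40 in Dsh cells. All 4 groups were separate. HBEGF was 2.15-fold higher in shKDM5C (log2 fold change 1.11, SE 0.0793, adjusted p = 8.63e-12), 3.38-fold lower in shYY1 (-1.76, SE 0.132, adjusted p = 2.75e-13) and 1.65-fold lower in Dsh cells (-0.72, SE 0.116, adjusted p = 2.63e-05). In HK2 cells shNC libraries held 29.1, 26.9 and 29.8 CPM, shYY1 libraries 28.0, 27.5 and 29.2, Dsh libraries 15.69, 15.03 and 15.53 and shKDM5C libraries 10.5, 17.7 and 18.1 CPM. Dsh and shKDM5C lay below shNC and shYY1 within its range. The log2 fold change was -0.89 in Dsh (SE 0.0955, adjusted p = 2.95e-09), -0.86 in shKDM5C (SE 0.196, adjusted p = 0.107) and -0.69 in shKDM5C without replicate 1 (SE 0.0995, adjusted p = 1.19e-05).

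NRG1 (ENSG00000157168, chromosome 8 from 31639386 to 32767959), which encodes neuregulin 1, was lower in ACHN shYY1 cells and in all HK2 knockdowns. In ACHN cells it ranged from 170.7 to 179 CPM in shNC, from 161 to 178 in shKDM5C, from 87.8 to 103 in shYY1 and from 140 to 148 in Dsh libraries, with log2 fold changes of -0.90 in shYY1 (SE 0.0414, adjusted p = 4.44e-19) and -0.26 in Dsh cells (SE 0.0446, adjusted p = 4.41e-05), while shKDM5C did not pass the test (-0.05, adjusted p = 0.32, or -0.09, adjusted p = 0.0492, with total counts). The decrease was thus smaller in Dsh than in shYY1 cells, whose ranges were separate. In HK2 cells NRG1 ranged from 120.5 to 126 CPM in shNC, from 95.7 to 109 in shYY1, from 75.1 to 87.3 in shKDM5C and from 70.0 to 71.2 in Dsh libraries. Its log2 fold change was -0.28 in shYY1 (SE 0.0568, adjusted p = 0.000621), -0.80 in Dsh cells (SE 0.0524, adjusted p = 5.37e-14) and -0.59 in shKDM5C (SE 0.134, adjusted p = 0.108), or -0.71 without replicate 1 (SE 0.0541, adjusted p = 3.49e-10). The shKDM5C decrease thus passed edgeR's test without that library, and with it the test of DESeq2 (adjusted p = 0.00941).

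BTC, betacellulin, was higher in Dsh cells of both lines. In ACHN cells it ranged from 5.25 to 6.47 CPM in shNC and from 11.2 to 12.8 in Dsh libraries, a 2.03-fold increase (log2 fold change 1.02, SE 0.124, adjusted p = 8.14e-07), while shKDM5C and shYY1 overlapped shNC and did not pass the test (adjusted p = 0.932 and 0.378). In HK2 cells it ranged from 3.26 to 3.83 CPM in shNC, from 4.93 to 5.34 in Dsh, from 3.62 to 7.57 in shYY1 and from 1.24 to 2.66 in shKDM5C libraries. The changes of BTC in HK2 cells were 0.54 in Dsh (SE 0.20, adjusted p = 0.0248) and 0.68 in shYY1 (SE 0.229, adjusted p = 0.0284). The Dsh call was lost without shNC replicate 2 or 3 or Dsh replicate 1 or 2, with values between 0.49 and 0.54 and adjusted p-values up to 0.0761. The shYY1 call was lost without any 1 of the 6 libraries except shYY1 replicate 1, with values between 0.42 and 0.74 and adjusted p-values up to 0.249. In shKDM5C BTC did not pass the test with (-0.77, adjusted p = 0.282) or without (-0.56, adjusted p = 0.13) replicate 1.

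EPGN, epigen, was barely detected. It had no count in 9 of the 24 libraries, all of ACHN, where a count of 0 allows between 0.124 and 0.162 CPM (3 counts of a library total, counting error only). The highest ACHN library held 2 counts, and HK2 libraries held between 1 and 13. EPGN passed the filter on low counts in none of the comparisons and was not tested.

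**Figure D2:**
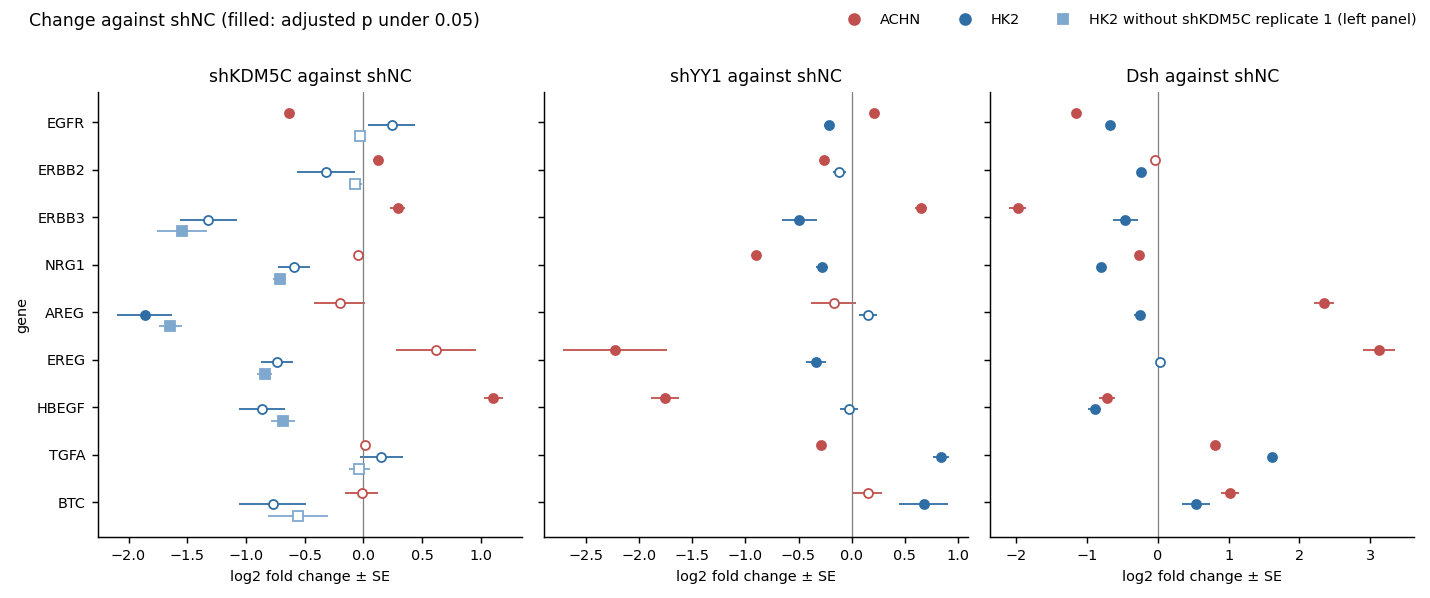
Log2 fold change of 9 members against shNC with its SE (edgeR), ACHN in red and HK2 in blue, for shKDM5C, shYY1 and Dsh from left to right, each panel with its own horizontal range. Filled points have an adjusted p under 0.05, and squares leave out HK2 shKDM5C replicate 1. In the Dsh panel EGFR and ERBB3 lie left of 0 and TGFA and BTC right of 0 in both lines, while AREG and EREG lie at 2.35 and 3.12 in ACHN and at -0.26 and 0.02 in HK2.

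Counted over the 9 members tested, ACHN cells had 3 higher and 1 lower in shKDM5C, 2 higher and 5 lower in shYY1 and 4 higher and 4 lower in Dsh cells. The background was wide. Among all genes tested, 28.9% were higher and 27.7% lower in shKDM5C, 24.2% and 24.5% in shYY1 and 30.7% and 32% in Dsh cells. With a log2 fold change of at least 1.5 in size, the fold threshold of the study, 0 members remained in shKDM5C (3.34% of all genes), 2 in shYY1, EREG and HBEGF (3.13%), and 3 in Dsh cells, AREG, EREG and ERBB3 (8.42%). The median absolute log2 fold change of the members in ACHN was 0.20, 0.29 and 1.02 in shKDM5C, shYY1 and Dsh cells, beside 0.27, 0.22 and 0.39 over all genes. The median of the members was thus below that of all genes in shKDM5C and above it in the other groups.

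In HK2 cells 2 members were higher and 4 lower in shYY1 cells (14.3% and 14.7% of all genes), and 2 were higher and 6 lower in Dsh cells (25.5% and 24.3%). Past the fold threshold were 0 members in shYY1 (1.29% of all genes) and TGFA alone in Dsh cells (4.3%). In a fit that took in all 4 HK2 groups, and with them shKDM5C replicate 1, only TGFA was called in shYY1 (2.16% of all genes higher and 3.26% lower) and TGFA, EGFR, NRG1 and HBEGF in Dsh cells (11.7% and 11.2%). In shKDM5C edgeR called 0 members higher (0.668% of all genes) and AREG alone lower (0.656%), also past the fold threshold (0.501%), while 0 were higher (8.28%) and 6 lower (7.05%) at an unadjusted p under 0.05. DESeq2 called 5 members on the same libraries, all lower, where it called 2.64% of all genes higher and 2.35% lower. Without replicate 1, 0 members were higher (11.5%) and 5 lower (10.9%), namely AREG, ERBB3, EREG, NRG1 and HBEGF, and the share of all genes called rose as well. The median absolute log2 fold change of the members was 0.74, 0.28 and 0.54 in shKDM5C, shYY1 and Dsh cells, beside 0.28, 0.20 and 0.31 over all genes. The 3 comparisons of a line share its shNC libraries.

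Summed by RPKM, the receptors of the members fell and the ligands rose in ACHN Dsh cells, a description for which no test was run. The receptor sum was 122 ± 1.83 RPKM in ACHN shNC, 85.7 ± 1.15 in shKDM5C, 141 ± 1.67 in shYY1 and 59.4 ± 2.08 in Dsh cells (SD, n = 3). The ligand sum was 42.9 ± 0.331, 47.5 ± 0.70, 29.8 ± 0.642 and 63.2 ± 0.895 RPKM in the same order, so that among the ACHN groups it exceeded the receptor sum only in Dsh cells. TGFA provided most of the ACHN Dsh ligand sum, at 54.7%, with AREG at 12.4% and NRG1, which had held 35.8% in shNC, at 20.2%. In HK2 cells the receptor sum was 51.9 ± 1.72 RPKM in shNC and 34.9 ± 0.347 in Dsh cells. The HK2 ligand sum was 76.5 ± 4.06 RPKM in shNC, 79.0 ± 9.07 in shYY1, 78.0 ± 1.00 in Dsh and 40.0 ± 1.57 in shKDM5C cells, whose libraries were at 38.5, 39.95 and 41.6 RPKM, replicate 1 first. The Dsh sum was thus close to that of shNC with another makeup, since TGFA went from 8.60% to 25.9% of it and HBEGF from 12.4% to 6.55%.

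**Figure D3:**
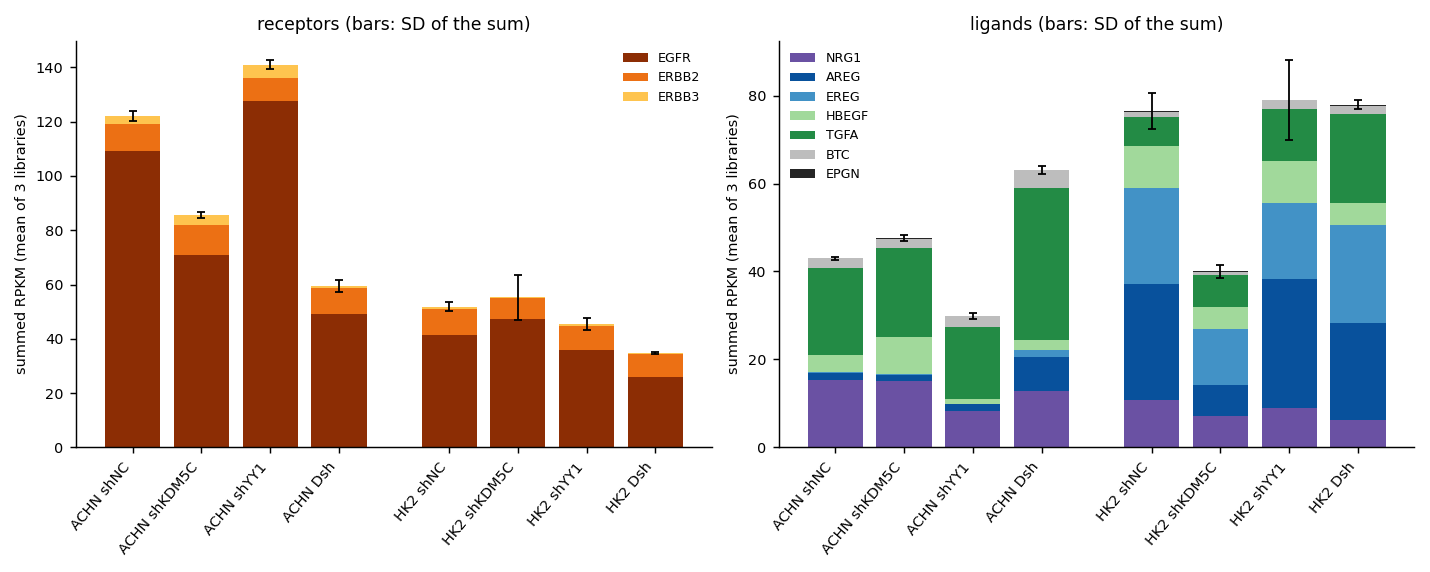
Summed RPKM of the 3 receptors (left) and 7 ligands (right) in each group, stacked by gene as means of 3 libraries, with the SD of the sum as error bar; HK2 shKDM5C includes replicate 1. The ligand stack of ACHN is tallest in Dsh cells at 63.2 RPKM and mostly TGFA, and that of HK2 shNC is mostly AREG and EREG.

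Whether the double knockdown equalled the sum of the single ones on the log2 scale was tested with all 12 libraries of a line. In ACHN cells 5 members were above that sum and 2 below it, where 26.8% of all genes were above and 28.8% below. EREG exceeded it by 4.71 (SE 0.546, adjusted p = 5.61e-08), AREG by 2.69 (SE 0.237, adjusted p = 4.67e-10), TGFA by 1.05 (SE 0.0578, adjusted p = 5.64e-14), BTC by 0.86 (SE 0.179, adjusted p = 0.000219) and NRG1 by 0.66 (SE 0.0698, adjusted p = 1.28e-08). ERBB3 was below it by -2.94 (SE 0.125, adjusted p = 3.39e-16) and EGFR by -0.74 (SE 0.0466, adjusted p = 7.52e-13). The size of the EREG departure rests on 1 to 5 counts in shYY1 and 11 to 24 in shNC libraries. For HBEGF, whose single knockdowns were opposite, the departure was -0.09 (SE 0.169, adjusted p = 0.66), and for ERBB2 it was 0.08 (SE 0.0593, adjusted p = 0.283). The targets departed as well, YY1 by 0.28 (SE 0.0689, adjusted p = 0.00125) and KDM5C by -0.42 (SE 0.0669, adjusted p = 6.48e-06). Against shNC, YY1 was at -0.51 in Dsh and -0.88 in shYY1 cells, thus depleted less in Dsh cells. KDM5C was at -0.80 in Dsh, -0.73 in shKDM5C and 0.34 in shYY1 cells. The part of these levels in the departures of the members was not tested.

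In HK2 cells edgeR called 3 members above the sum (5.21% of all genes) and 0 below it (4.4%), with 4 above (12.4%) and 1 below (12.4%) at an unadjusted p under 0.05, and DESeq2 called 4 above (7.72%) and 1 below (6.46%). The 3 called by edgeR were EREG by 1.10 (SE 0.198, adjusted p = 0.00432), AREG by 1.44 (SE 0.258, adjusted p = 0.00412) and ERBB3 by 1.36 (SE 0.289, adjusted p = 0.0111). Without shKDM5C replicate 1, 4 were above (15%) and 1 below (13.7%), since TGFA at 0.82 (SE 0.101, adjusted p = 3.00e-07) and EGFR at -0.43 (SE 0.0632, adjusted p = 5.18e-06) passed the test as well, and EREG, AREG and ERBB3 were at 1.21, 1.24 and 1.58. ERBB3 departed in opposite directions in the 2 lines, while EREG and AREG were above the sum in both. Against shNC, AREG and EREG were at 2.35 and 3.12 in ACHN Dsh but at -0.26 and 0.02 in HK2 Dsh cells. Their HK2 shKDM5C and shYY1 changes were -1.86 and 0.15 for AREG and -0.74 and -0.34 for EREG. Neither target passed the test with all HK2 libraries (KDM5C -0.10, adjusted p = 0.843, YY1 0.03, adjusted p = 0.926). Without replicate 1 KDM5C did (-0.315, adjusted p = 0.00244).

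**Figure D4:**
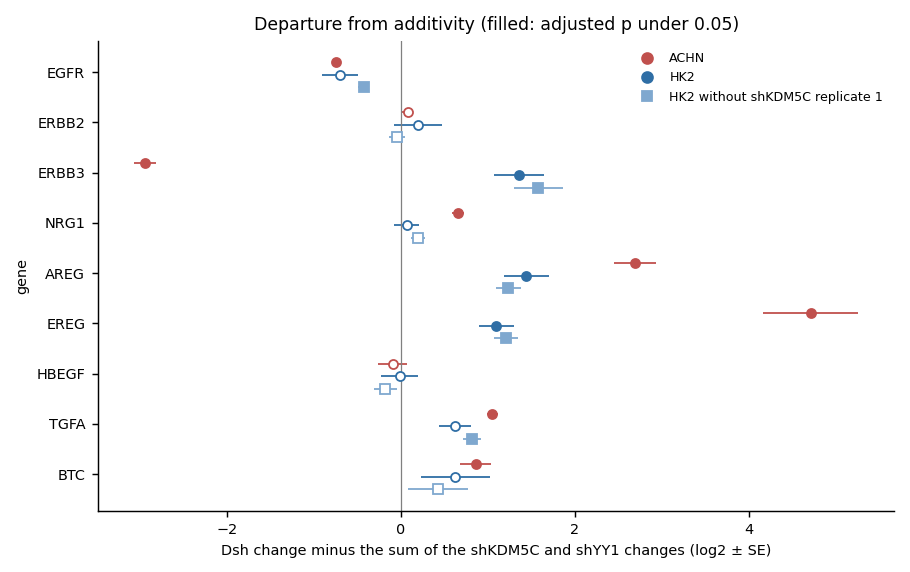
Dsh change minus the sum of the shKDM5C and shYY1 changes against shNC for 9 members (log2, with SE, edgeR), ACHN in red, HK2 in blue and HK2 without shKDM5C replicate 1 as squares; filled points have an adjusted p under 0.05. EREG lies furthest right at 4.71 and ERBB3 furthest left at -2.94, both in ACHN. The EREG value rests in part on 1 to 5 counts in ACHN shYY1 libraries.

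The knockdown effects were then compared between the lines, as the ACHN change minus the HK2 change. The Dsh effect differed for 7 members (46% of 18087 genes tested), the shYY1 effect for 6 (33.1%) and the shKDM5C effect for 6 (11.9%), or 7 without HK2 shKDM5C replicate 1 (33.9%). For the Dsh effect the largest differences were those of EREG at 3.11 (SE 0.204), AREG at 2.62 (SE 0.156) and ERBB3 at -1.50 (SE 0.203). HBEGF fell in Dsh cells of both lines, and its difference of 0.19 did not pass the test (SE 0.149, adjusted p = 0.305). The targets themselves were lowered less in ACHN than in HK2 cells. For YY1 the difference was 0.84 in shYY1 (adjusted p = 3.52e-11) and 0.99 in Dsh cells (adjusted p = 3.67e-12). For KDM5C it was 0.71 in Dsh cells (adjusted p = 2.01e-09). In shKDM5C it was 1.02 (adjusted p = 0.0203), or 0.79 without replicate 1 (adjusted p = 4.31e-11). The part of knockdown depth in the member differences was not tested.

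The 500 kb to either side of the chromosome 4 ligand genes hold 27 other genes of the annotation, and 4 of them had counts enough to be tested in each comparison with shNC. Those were CXCL1 in ACHN or CXCL5 in HK2, with CXCL2, CXCL3 and MTHFD2L in both. In ACHN Dsh cells all 4 were higher (30.7% of all genes), with a median log2 fold change of 1.61. They included the neutrophil chemokine genes CXCL1, from 29.2 ± 2.99 to 195.9 ± 10.8 CPM (2.75, SE 0.0663, adjusted p = 1.10e-16), CXCL2, from 12.4 ± 2.21 to 43.8 ± 0.394 CPM (1.83, SE 0.0968, adjusted p = 8.55e-12), and CXCL3 (1.39, SE 0.21, adjusted p = 1.27e-05), and the folate enzyme gene MTHFD2L (0.46, SE 0.121, adjusted p = 0.00293). In HK2 Dsh cells 3 of 4 were higher (25.5% of all genes), while AREG there was lower. The 3 were CXCL5 (1.40, SE 0.0731, adjusted p = 2.35e-16), CXCL3 (1.07, SE 0.33, adjusted p = 0.0075) and CXCL2 (0.60, SE 0.128, adjusted p = 0.000221). Of the single knockdowns, ACHN shKDM5C had 2 neighbours higher (CXCL1 and CXCL2), where 28.9% of all genes were. In ACHN shYY1 2 were higher (CXCL1 and CXCL2, beside 24.2% of all genes) and 1 lower (MTHFD2L, beside 24.5%). In HK2 shYY1 1 was higher (CXCL5, beside 14.3%) and 1 lower (CXCL2, beside 14.7%). In HK2 shKDM5C no neighbour was called with all libraries (adjusted p from 0.128 for CXCL5 to 0.853 for CXCL3). Without replicate 1 CXCL5 was higher (0.54, SE 0.0798, adjusted p = 1.59e-05), where 11.5% of all genes were. CXCL2 was then lower (-0.47, SE 0.157, adjusted p = 0.0308), where 10.9% were. CXCL1, CXCL2 and CXCL3 are close paralogs that can share reads, so their split is uncertain. Only 4 neighbours were tested, most of them chemokine genes, and whether position had a part was not tested.

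The rest of the family was low. ERBB4, NRG3 and NRG4 passed the filter in no comparison, and neither did NRG2 in HK2 cells. EGF, the founding ligand, fell from 2.42 ± 0.130 to 0.851 ± 0.0691 CPM in ACHN Dsh cells (log2 fold change -1.49, SE 0.269, adjusted p = 8.75e-05) and rose from 5.02 ± 1.03 to 8.51 ± 1.06 CPM in HK2 Dsh cells (0.76, SE 0.177, adjusted p = 0.000585). NRG2, neuregulin 2, rose from 4.44 ± 0.334 to 7.10 ± 1.03 CPM in ACHN Dsh cells (0.69, SE 0.153, adjusted p = 0.000718). In the single knockdowns edgeR called 0 of these genes in either line, and at an unadjusted p under 0.05 only EGF in HK2 shKDM5C, at 0.57 (adjusted p = 0.32), or 0.52 (adjusted p = 0.0712) without replicate 1.

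Of 8 genes of ligand shedding tested, 5 were higher and 2 lower in ACHN Dsh, where 30.7% of all genes were higher and 32% lower, and 5 were higher and 0 lower in HK2 Dsh cells (25.5% and 24.3%), with medians of 0.40 and 0.37 beside medians of all genes within 0.01 of 0. Higher in both were ADAM12, a metalloprotease that can shed HBEGF (1.35, SE 0.098, in ACHN and 2.20, SE 0.098, in HK2), ADAM17, the main sheddase of several EGFR ligands (0.54 and 0.49), and RHBDF1 and RHBDF2, the iRhom partners of ADAM17 (0.82 and 1.45 in ACHN, 0.72 and 0.25 in HK2). FRMD8, which binds the iRhoms, was the fifth in ACHN (0.26) and RHBDL2, a rhomboid protease, the fifth in HK2 (0.94, SE 0.359, adjusted p = 0.0308). ADAM9 (-0.80) and ADAM10 (-0.38), which sheds BTC, were the 2 lower genes in ACHN. In ACHN shKDM5C 4 were higher (ADAM12, RHBDF1, RHBDF2 and FRMD8) and 2 lower (ADAM9 and ADAM10), and in ACHN shYY1 4 were higher (ADAM10, ADAM12, RHBDF1 and RHBDF2) and 1 lower (ADAM9). In HK2 shYY1 2 were higher (ADAM9 and ADAM12) and 0 lower. In HK2 shKDM5C edgeR called 0, with 1 higher and 1 lower at an unadjusted p under 0.05, and without replicate 1 there were 3 lower (ADAM9, ADAM10 and RHBDF2). ADAM17 passed the test in none of the single knockdowns. For this and the next 3 lists, the shares of all genes called higher and lower were 28.9% and 27.7% in ACHN shKDM5C, 24.2% and 24.5% in ACHN shYY1, 14.3% and 14.7% in HK2 shYY1, and 0.668% and 0.656% in HK2 shKDM5C, or 11.5% and 10.9% without replicate 1. In these lists, genes beyond the 3 largest Dsh changes of a line were named after their values were seen.

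Adaptors and core kinases downstream of the receptors changed in both directions. Of 22 genes tested, 7 were higher and 6 lower in ACHN Dsh (30.7% and 32% of all genes), close to the shares of all genes, and 11 higher and 5 lower in HK2 Dsh cells (25.5% and 24.3%), with list medians of 0.04 and 0.13. In ACHN Dsh cells the largest changes were those of STAT3, a transcription factor below cytokine and growth factor receptors (1.11, SE 0.0439), HRAS (0.89, SE 0.0712) and the PI3K catalytic subunit gene PIK3CB (-0.89, SE 0.0567). In HK2 Dsh cells the PI3K regulatory subunit gene PIK3R1 was higher (0.75, SE 0.0647), and the RAF family kinase gene ARAF was lower (-0.68, SE 0.0623). The 5 lower genes of HK2 Dsh cells also included AKT1 and HRAS. In ACHN shKDM5C 10 were higher and 5 lower (among them GAB1, PLCG1 and BRAF), and in ACHN shYY1 12 were higher and 4 lower (PLCG1, ARAF, PIK3CA and PIK3R1). In HK2 shYY1 5 were higher (GRB2, HRAS, MAP2K1, MAP2K2 and AKT2) and 5 lower (among them ARAF, MAPK3, PIK3R1 and STAT3). In HK2 shKDM5C PIK3R1 alone was higher (1.41, adjusted p = 0.0412) and 0 were lower, and without replicate 1 there were 3 higher (PIK3R1, BRAF and NRAS) and 1 lower (AKT1).

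Inhibitors of the receptors and of the pathway were more often higher than lower in Dsh cells. In ACHN Dsh 9 of 14 were higher (30.7% of all genes) and 1 lower (32%), SOCS4 at -0.16, with a median of 0.37. In HK2 Dsh 7 were higher (25.5%) and 3 lower (24.3%), with a median of 0.29. SPRY1, a feedback inhibitor of receptor tyrosine kinases, went from 0.517 ± 0.0661 to 3.36 ± 1.08 CPM in ACHN (2.68, SE 0.32, adjusted p = 6.69e-07) and from 2.40 ± 0.953 to 4.11 ± 0.538 CPM in HK2 cells (0.77, SE 0.268, adjusted p = 0.0167). DUSP5, an ERK phosphatase, was higher by 1.18 (SE 0.0905) in ACHN and 1.17 (SE 0.0624) in HK2, and SPRED1, a RAS pathway inhibitor, by 1.15 in ACHN (SE 0.0657). LRIG1, which promotes degradation of the receptors, was lower in HK2 Dsh cells (-1.29, SE 0.146, adjusted p = 9.55e-09), together with LRIG2 and SOCS4, and higher in ACHN Dsh cells (1.02). In ACHN shKDM5C 8 of 13 tested were higher and 3 lower (LRIG2, CBLB and RASA1), and in ACHN shYY1 2 were higher (LRIG3 and SOCS5) and 6 lower. In HK2 shYY1 1 was higher (ERRFI1) and 6 lower. In HK2 shKDM5C edgeR called 0, with 4 higher at an unadjusted p under 0.05, and without replicate 1 there were 5 higher (LRIG2, LRIG3, SPRY1, SPRED1 and NF1).

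Of 10 transcriptional targets of ERK, used elsewhere as a score of pathway activity, 9 were tested. In ACHN Dsh all 9 were higher, beside 30.7% of all genes, with a median log2 fold change of 1.31. The largest changes were those of the ERK phosphatase gene DUSP6 (2.56, SE 0.231, adjusted p = 1.64e-08), the feedback inhibitor gene SPRY4 (2.38, SE 0.21, adjusted p = 1.14e-08) and the transcription factor gene ETV5 (1.94, SE 0.0895, adjusted p = 1.19e-12). DUSP6 and SPRY4 were low in shNC cells. DUSP6 went from 1.67 ± 0.883 to 9.79 ± 1.43 CPM and SPRY4 from 1.02 ± 0.1325 to 5.31 ± 0.255 CPM. In HK2 Dsh 7 of 9 were higher (25.5% of all genes), with a median of 1.03, led by PHLDA1 (1.95, SE 0.0465, adjusted p = 1.51e-24), SPRY2 (1.67, SE 0.0914) and ETV5 (1.30, SE 0.0571), and 1 was lower (24.3%), EPHA4 (-0.94). In ACHN shKDM5C 8 were higher and 1 lower (SPRY2, -0.40), with a median of 0.82, and in ACHN shYY1 4 were higher (PHLDA1, CCND1, EPHA2 and ETV5) and 2 lower (SPRY2 and EPHA4). In HK2 shYY1 4 were higher (PHLDA1, SPRY2, CCND1 and ETV5) and 1 lower (ETV4). In HK2 shKDM5C 1 was higher (DUSP6) and 1 lower (CCND1), and without replicate 1 PHLDA1 was higher and EPHA2 lower as well. These are mRNA levels of target genes, and kinase activity was not measured here.

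**Figure D5:**
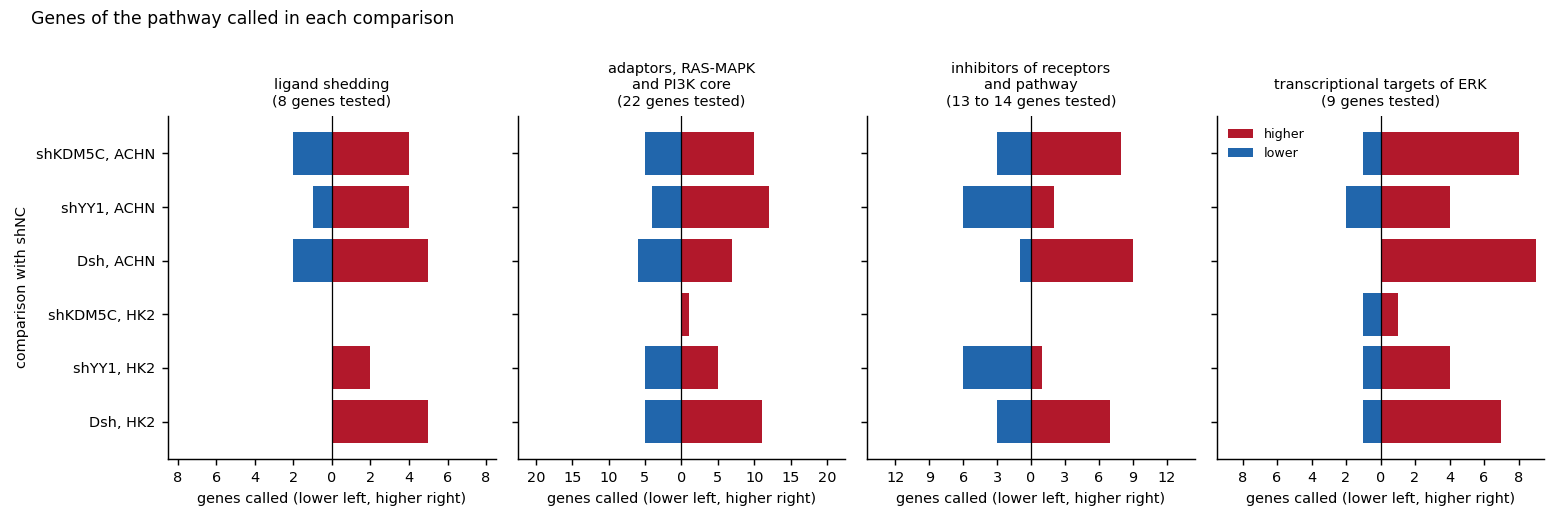
Number of genes called higher (red, right) and lower (blue, left) against shNC at an adjusted p under 0.05 in 4 lists of the pathway (panels), by comparison; each horizontal axis reaches the number of genes tested. In ACHN Dsh cells all 9 ERK targets tested are higher, and in HK2 shKDM5C cells, with replicate 1 included, no shedding gene and no inhibitor is called.

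The genes whose levels went most alike with EGFR and TGFA, the receptor and the ligand with the highest mean RPKM, were sought among 9006 genes with a mean of at least 10 CPM in each line. The measure was Pearson's r of log2 CPM over 24 libraries after the mean of each line was subtracted, and it mostly follows the 4 groups that the libraries share. For EGFR these were OAS3 (0.954), EIF2AK1 (0.953) and RMI1 (0.953). For TGFA they were IDS (0.964), CASK (0.958) and LOX (0.94).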

How the data were processed

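RNA was extracted with TRIzol, libraries were prepared with the NEBNext Ultra kit, and paired reads of 150 bp were sequenced. Per the labels and file headers, the authors aligned reads to GRCh38 (HISAT2 2.0.5 in the submitters' processing notes) and counted them per Ensembl release 84 gene with featureCounts (2.0.1 in the file headers, 1.5.0-p3 in the notes), without a strand option, and deposited these raw counts, 1 table per library. Reads of overlapping or antisense genes therefore cannot be told apart. Symbols, given to 41209 of 60675 genes, were taken from the reference annotation by Ensembl identifier.

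Groups came from the labels. Counts were tested with edgeR 4.0.16 (R 4.3.3), using TMM factors, filterByExpr, the quasi-likelihood test and Benjamini-Hochberg adjustment over all genes tested, on the libraries of the groups compared; 12 libraries of a line entered the interaction, and 12 of both lines each difference between lines. Genes with an adjusted p under 0.05 were called. SE is the log2 fold change divided by the root of F. The fits were also run on simulated data in which all but a small set of genes were unchanged. In the data themselves 62.6% of genes were called in ACHN Dsh and 49.8% in HK2 Dsh cells. How the fits behave with so many changes was not tested. An exact permutation test of 3 against 3 libraries cannot go below p = 0.1 and was not used. The members and lists were chosen with earlier results of these data known. List genes were named by the 3 largest absolute Dsh changes per list and line among called genes with at least 1 CPM, neighbours by position, and like genes by correlation. Alternatives were DESeq2 1.42.0, RLE factors, total counts, other filters, a replicate block, all 4 groups in the fit, and each library left out. Tables and plots were made with pandas 2.3.3 and matplotlib 3.10.9. Protein sequences of the members were not used here. Some genes of the pathway lists are counted but not reported here by name.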

Additional observations from a re-analysis of the deposited data

Results flagged for a closer look

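The results singled out here are the 19 values, over the 9 members tested, for which the effect of a knockdown differed between ACHN and HK2 cells by the test of the difference itself (edgeR, adjusted p under 0.05), all given as the ACHN log2 fold change minus that of HK2. By the same test 46% of all genes differed for Dsh, 33.1% for shYY1 and 11.9% for shKDM5C, or 33.9% without HK2 shKDM5C replicate 1. The targets KDM5C and YY1 were also lowered less in ACHN than in HK2 cells, as given above. No explanation was tested.

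For the double knockdown the difference was 3.11 for EREG (adjusted p = 3.51e-13), 2.62 for AREG (3.81e-14), 0.56 for NRG1 (3.44e-08) and 0.22 for ERBB2 (0.0169), and -1.50 for ERBB3 (4.61e-07), -0.80 for TGFA (1.02e-09) and -0.46 for EGFR (1.63e-07). EREG and AREG thus rose in ACHN cells alone. TGFA rose and EGFR, ERBB3 and NRG1 fell in both lines, TGFA and NRG1 by more in HK2 and EGFR and ERBB3 by more in ACHN cells. The ERBB2 difference was lost without a filter on low counts (0.17, adjusted p = 0.135) and without any of ACHN shNC replicates 1 to 3, ACHN Dsh replicate 3, HK2 shNC replicate 1 or HK2 Dsh replicate 1, with values between 0.16 and 0.19.

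For shYY1 it was 1.16 for ERBB3 (adjusted p = 1.06e-07) and 0.43 for EGFR (9.71e-08), both of which were higher in ACHN and lower in HK2 cells. It was -1.12 for TGFA (2.42e-12), -0.61 for NRG1 (7.50e-08), -1.72 for HBEGF (3.66e-10) and -1.88 for EREG (0.0223), the last resting on 1 to 5 counts in the ACHN shYY1 libraries and lost without ACHN shNC replicate 1 (-1.61, adjusted p = 0.0953) or shYY1 replicate 2 (-1.44, adjusted p = 0.11).

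For shKDM5C it was -0.86 for EGFR (adjusted p = 0.0171), 1.64 for ERBB3 (0.000499), 0.56 for NRG1 (0.0159), 1.66 for AREG (0.00541), 1.37 for EREG (0.0303) and 1.98 for HBEGF (0.000164). Without HK2 shKDM5C replicate 1 these were -0.60, 1.84, 0.67, 1.44, 1.46 and 1.80, and ERBB2 passed the test as well, at 0.19 (adjusted p = 0.0282). The EGFR difference was lost without HK2 shNC replicate 1 (-0.82, adjusted p = 0.0501). That of EREG was lost without ACHN shNC replicate 2 or 3, ACHN shKDM5C replicate 2 or any HK2 shNC library, with values between 0.99 and 1.42 and adjusted p-values up to 0.0987.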

How the results depend on the processing

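Over the 108 log2 fold changes of 9 members in 12 comparisons, 654 of 702 values under the alternatives kept direction and side of the threshold, and 850 of 918 did so when 1 library was left out. The causes of the changes were not tested.

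Requiring an absolute log2 fold change of 1.5 left 0, 2 and 3 members in shKDM5C, shYY1 and Dsh of ACHN. The shares of all genes were 3.34%, 3.13% and 8.42%. In HK2 it left 1, 0 and 1 in the same order (0.501%, 1.29% and 4.3%). Most other changes were in HK2 cells. For shKDM5C, with 1 member called (1.32% of all genes), DESeq2 called 5 members (4.99%) and total counts 4 (1.34%). No filter called 4 (1.24%) and a fit with all 4 groups 5 (7.84%). The fit with all 4 groups takes in shKDM5C replicate 1. For shYY1 it called 1 member in place of 6 (5.42% of all genes in place of 29.1%). For Dsh it called 4 members in place of 8 (22.9% in place of 49.8%). For the HK2 interaction, DESeq2, total counts and no filter called 5 members each in place of 3. The shares of genes called were 14.2%, 9.27% and 6.3% in that order, in place of 9.61%. Leaving out 1 library gave 0 to 5 members in shKDM5C, 3 to 6 in shYY1, 5 to 8 in Dsh and 3 to 5 in the interaction. The share of all genes called moved as well. It went from 0 to 22.3% in shKDM5C, 22.1% to 26.6% in shYY1, 44.1% to 46.1% in Dsh and 5.4% to 28.7% in the interaction.

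Over all genes, 214 were called in HK2 shKDM5C, and 3718 without its replicate 1, but 0 or 1 without an shNC library, 48 and 28 without its replicates 2 and 3, 807 with DESeq2, 405 without a filter and 1340 with all 4 groups. With all 4 groups, 927 genes in place of 4671 were called in HK2 shYY1 and 3914 in place of 8073 in HK2 Dsh cells.

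Signs turned only in small values that were not called in the main analysis. Total counts gave -0.031 for TGFA in ACHN shKDM5C, 0.0020 for HBEGF in the ACHN interaction, -0.013 for EREG in HK2 Dsh, 0.061 for HBEGF in the HK2 interaction and -0.014 for ERBB2 between the controls. No filter gave 0.00014 for BTC in ACHN shKDM5C and 0.013 for HBEGF in the HK2 interaction. Leaving out 1 library gave -0.084 to 0.066 for BTC in ACHN shKDM5C, -0.23 to 0.042 for HBEGF in the ACHN interaction, -0.027 to 0.37 for EGFR and -0.036 to 0.26 for TGFA in HK2 shKDM5C, -0.068 to 0.0043 for HBEGF in HK2 shYY1, -0.016 to 0.092 for EREG in HK2 Dsh, -0.043 to 0.38 for ERBB2 and -0.18 to 0.098 for HBEGF in the HK2 interaction, -0.21 to 0.055 for TGFA in the shKDM5C difference and -0.0063 to 0.086 for ERBB2 between the controls.

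Replicate numbers are shared by the groups. Libraries of the same number deviated together by correlations between -0.0489 and 0.0415 in ACHN and between -0.189 and 0.0801 in HK2. None of 18 per line was above 0.1, while 5 of 36 HK2 pairs of different number were. Those 5 all held a library of shKDM5C, the group of the library that stood apart, as did the pair at -0.189. The part of that library in these correlations was not tested. No pairing by number was thus seen, and whether libraries of a number shared a culture or batch was not stated. With a replicate block 0 members were called in HK2 shKDM5C (AREG, adjusted p = 0.0819), 3 in the shKDM5C difference in place of 6, with EGFR (adjusted p = 0.0625), NRG1 (0.0615) and EREG (0.0773) lost, and HBEGF in the HK2 interaction was at 0.0018. Over all genes it called 0 in HK2 shKDM5C and 957 in place of 2140 in that difference. For the 2 controls a block within each line leaves no residual degrees of freedom. A block shared by the lines, added after seeing the data, called 8 members as without it (75.6% of all genes, and 76.6% without it).

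EPGN, with at most 13 counts in a library, was too low to be tested, and EREG had at most 5 counts in ACHN shYY1 libraries. Whether deeper libraries would change this was not tested.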
